A study of Mus musculus with 24 samples.

Results

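Pegylated interferon alpha (pegIFN) was compared with vehicle in long-term haematopoietic stem cells (LT-HSCs) that carried Jak2V617F, a point mutation that leaves the kinase Jak2 active without cytokine and underlies most myeloproliferative neoplasms. The comparison used the 6 Jak2V617F libraries of pegIFN mice and the 6 of vehicle mice, which is 12 of the 24 RNA libraries of the series, and it covered the 15879 genes that passed a filter on low counts, out of 38215 in the table. All recipients were lethally irradiated C57BL/6J Ptprc a/b mice that had received Jak2fl-V617F/+ Tg(E2A-cre) marrow (CD45.2) and congenic Jak2+/+ marrow (CD45.1) in equal parts. The E2A-cre transgene recombines in the early embryo, so the Jak2V617F donors carried the mutation in all their tissues, and every library of the comparison came from heterozygous Jak2V617F cells that shared their host with wild-type cells. The pegIFN mice had 5 subcutaneous injections of 600 ng over 4 weeks, the vehicle mice had PBS with 0.1% BSA on the same schedule, and marrow was collected 48 hours after dose 5. The Lin- Sca1+ cKit+ CD150+ CD48- gate defined the LT-HSCs, and each library came from 1 mouse by the numbers in the library names, so the replicate is the mouse.

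LT-HSCs sit at the top of blood formation and are mostly out of the cell cycle. Type I interferon binds the receptor chains Ifnar1 and Ifnar2, whose kinases Jak1 and Tyk2 phosphorylate Stat factors. With Irf9 these form a complex that binds the interferon-stimulated response element (ISRE) and switches on antiviral genes. In stem cells interferon is also known for pushing quiescent cells towards division, and in patients with Jak2V617F disease interferon alpha is used to lower the mutant clone. In such bulk RNA fewer cells of a type and less RNA per cell cannot be told apart.

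All 12 fixed LT-HSC markers had a median of at least 1 CPM (counts scaled to a library total of 1000000) in both groups. All 4 megakaryocyte, 4 mast cell and 4 macrophage markers also met this bar in both groups, so it does not tell cell types apart. Summed LT-HSC markers ran from 1657 to 2070 CPM in vehicle and from 1149 to 1834 CPM in pegIFN. The megakaryocyte sums were 806.8 to 1745 CPM and 1382 to 1976 CPM. Total counts ran from 24.6 to 31.6 M (M, 1000000) in vehicle and from 28.8 to 34.2 M in pegIFN, and mitochondrial genes took 2.68 to 3.44% and 2 to 3.25% of them. The T cell genes Cd3e, Cd3d and Cd3g stayed at 0.335 CPM or lower in every library. Summed T and NK cell markers (6 genes, these 3 included) ran from 64.5 to 84.3 CPM in vehicle and from 97.3 to 149.8 CPM in pegIFN. Most of these sums was Nkg7, at 57.0 to 76.9 CPM in vehicle and 88.6 to 142.8 CPM in pegIFN. Summed granulocyte and monocyte markers (7 genes) ran from 164.1 to 1599 CPM in vehicle and from 564 to 1034 CPM in pegIFN, and summed endothelial and stromal markers (5 genes) from 8.95 to 86.2 CPM and from 11.5 to 20.7 CPM. There were 3 libraries that stood apart. Jak2V617F pegIFN replicate 1 had Xist, the RNA of the silent X chromosome of female cells, at 653.9 CPM against 40.8 to 110.1 CPM in the other pegIFN libraries. Jak2V617F pegIFN replicate 3 had stem cell genes at a higher level than the other pegIFN libraries, and Jak2V617F vehicle replicate 4 had the highest endothelial and stromal sum and the lowest mitotic genes. Calls of named genes that were lost without them, and list counts that moved by over 1.5 times, are given beside the result.

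Xist also differed between the groups. Jak2V617F vehicle libraries had 2.996 to 54.9 CPM, the wild-type libraries of the same mice 1801 to 3310 CPM apart from wild-type vehicle replicate 4 at 599.8 CPM, and within Jak2V617F cells Xist was called higher with pegIFN, by a log2 fold change of 2.70 ± 0.64 (SE; adjusted p = 0.00192) and by 1.52 without pegIFN replicate 1 (edgeR, adjusted p = 0.00952). Summed Y-linked genes ran from 189.9 to 242.7 CPM in Jak2V617F vehicle, from 149.3 to 216.2 CPM in Jak2V617F pegIFN and from 2.166 to 75.66 CPM in the wild-type libraries other than vehicle replicate 4 (249.6 CPM). For both measures the ranges of Jak2V617F vehicle and pegIFN overlapped, 0 and 0 of 4 Y-linked genes were called higher and lower, and the part of wild-type cells in the results was not tested.

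PegIFN changed a large part of the Jak2V617F LT-HSC transcriptome. Of the genes tested, 3446 (21.7%) were higher and 3545 (22.3%) lower at an adjusted p under 0.05 (edgeR), here named called genes. Counts of list members below are to be read against these shares. Changes of 2-fold or more were less even, with 328 genes higher (2.07%) and 1091 lower (6.87%). At a log2 fold change of 2 or more 131 genes were higher and 248 lower, and at 4 or more the order turned, with 31 higher and 14 lower. In 1558 genes (9.81%) all 6 pegIFN libraries lay above all 6 vehicle libraries, and in 1362 (8.58%) all lay below. Without the 3 libraries that stood apart, 3303 genes were higher and 3281 lower, and 84.6% of the calls over all 12 libraries were shared. Scaling to the upper quartile gave 2678 higher and 4223 lower, so that 38.8% of calls were higher against 49.3%, and moved the median of all genes from -0.01 to -0.068 on the log2 scale.

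**Figure D1:**
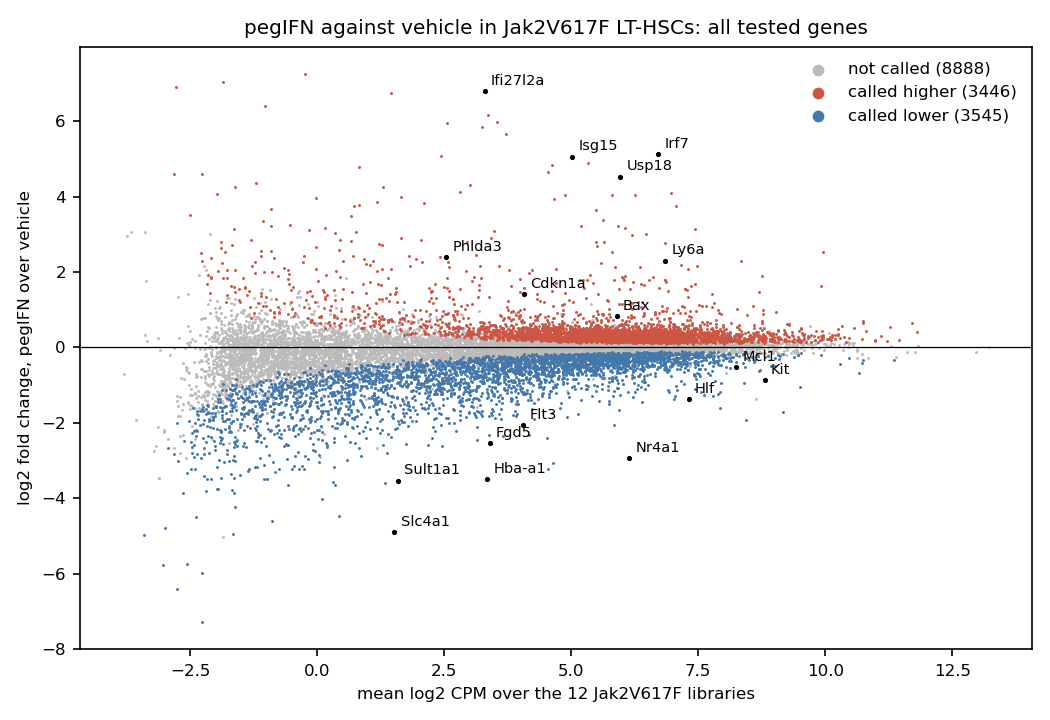
Each point is 1 of the 15879 tested genes in Jak2V617F LT-HSCs, with the mean log2 CPM over the 12 libraries on the horizontal axis and the log2 fold change of pegIFN over vehicle on the vertical axis. Red points were called higher (3446), blue points lower (3545), and the steepest increases, such as Ifi27l2a at 6.81, lie further from 0 than decreases at the same level.

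The largest increases were classical antiviral genes. Ifi27l2a, an interferon-alpha-inducible protein of membranes (chr12:103442167-103443680, GRCm38, minus strand), was at 0.721 to 1.24 CPM in vehicle (median 0.833) and 87.1 to 121 CPM in pegIFN (median 100.4). Every pegIFN library was far above every vehicle library, and the log2 fold change was 6.81 ± 0.15 (SE; adjusted p = 9.85e-22). The tetratricopeptide antiviral proteins Ifit3 and its copy I830012O16Rik (now Ifit3b) rose by 5.68 and 6.76, and since they are near-identical copies their split of reads is uncertain. Mx1, a GTPase that blocks influenza and related viruses, ran at 0.564 to 2.95 CPM in vehicle (median 1.36) and 79.3 to 128 CPM in pegIFN (median 96.4), a log2 fold change of 5.99 ± 0.28 (SE; adjusted p = 4.56e-14). The other genes among the 10 largest increases with a mean of at least 1 on the log2 CPM scale were Apol9b (6.17), the DNA-sensor relatives Gm4955 (now Ifi206, 5.95) and Pydc4 (now Ifi213, 5.84), Irf7 (5.13), Ms4a4c (5.07) and Isg15 (5.06), all with groups that did not overlap.

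The sequences before the start of these genes show where letters of the interferon response element stand. The core GAAANNGAAA was searched on both strands in the 250 bases before the start, in the RefSeq promoters of GRCm38.p6, which matched 10929 of the 15879 tested genes. It was in 3.34% of the tested genes, in 30.8% (28 of 91) of genes called higher by a log2 fold change of 2 or more, in 14.4% (20 of 139) of those between 1 and 2, in 3.61% below 1 and in 2.89% of genes called lower. In these shares a gene with several listed starts counted if any of them had the core. Counted by promoter and not by gene, all 32851 promoters of the table held it in 2.98%. The core TTCNNNGAA, the element of Stat homodimers, was in 7.19% of tested genes and in 9.89% of the steepest increases. The promoters of 8 of the 10 largest increases and of 2 large decreases follow, 5′ to 3′ in lower case up to the base before the start, with matches to the ISRE core in capitals.
Ifit3b: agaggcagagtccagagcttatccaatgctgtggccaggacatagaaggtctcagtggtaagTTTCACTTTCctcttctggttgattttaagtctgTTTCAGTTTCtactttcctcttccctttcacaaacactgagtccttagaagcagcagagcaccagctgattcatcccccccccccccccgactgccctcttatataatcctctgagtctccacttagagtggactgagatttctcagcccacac
Ifit3: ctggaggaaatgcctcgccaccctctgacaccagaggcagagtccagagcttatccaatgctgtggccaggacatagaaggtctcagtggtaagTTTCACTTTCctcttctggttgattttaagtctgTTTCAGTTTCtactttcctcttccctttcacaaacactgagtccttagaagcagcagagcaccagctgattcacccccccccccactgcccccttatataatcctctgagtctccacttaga
Isg15: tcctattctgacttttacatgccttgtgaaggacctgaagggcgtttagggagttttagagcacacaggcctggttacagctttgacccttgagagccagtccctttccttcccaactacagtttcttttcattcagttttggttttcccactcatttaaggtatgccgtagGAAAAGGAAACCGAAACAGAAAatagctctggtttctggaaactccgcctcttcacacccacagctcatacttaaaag
Apol9b: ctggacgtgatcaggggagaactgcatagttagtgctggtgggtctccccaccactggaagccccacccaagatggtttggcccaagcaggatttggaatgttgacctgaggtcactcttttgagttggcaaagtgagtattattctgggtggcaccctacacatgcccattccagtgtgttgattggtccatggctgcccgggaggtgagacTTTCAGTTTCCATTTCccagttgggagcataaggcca
Ifi206: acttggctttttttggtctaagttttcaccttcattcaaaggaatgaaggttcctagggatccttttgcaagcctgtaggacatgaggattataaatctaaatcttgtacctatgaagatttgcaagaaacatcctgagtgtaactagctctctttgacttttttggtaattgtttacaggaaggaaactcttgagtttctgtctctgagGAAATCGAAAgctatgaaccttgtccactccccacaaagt
Ifi213: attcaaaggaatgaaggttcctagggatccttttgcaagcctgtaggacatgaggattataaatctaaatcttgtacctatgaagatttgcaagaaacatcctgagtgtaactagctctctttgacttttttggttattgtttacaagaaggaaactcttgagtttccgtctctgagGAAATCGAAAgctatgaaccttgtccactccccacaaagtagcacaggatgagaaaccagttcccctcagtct
Irf7: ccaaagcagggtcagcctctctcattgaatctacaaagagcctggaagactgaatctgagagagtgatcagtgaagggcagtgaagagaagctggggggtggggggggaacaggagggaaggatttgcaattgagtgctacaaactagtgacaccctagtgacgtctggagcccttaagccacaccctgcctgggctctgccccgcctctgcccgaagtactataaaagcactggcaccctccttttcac
Ms4a4c: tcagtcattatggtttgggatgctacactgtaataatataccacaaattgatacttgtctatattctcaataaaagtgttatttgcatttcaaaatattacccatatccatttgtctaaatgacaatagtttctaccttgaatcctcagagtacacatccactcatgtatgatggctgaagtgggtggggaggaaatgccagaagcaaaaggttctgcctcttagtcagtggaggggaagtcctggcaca
Sult1a1: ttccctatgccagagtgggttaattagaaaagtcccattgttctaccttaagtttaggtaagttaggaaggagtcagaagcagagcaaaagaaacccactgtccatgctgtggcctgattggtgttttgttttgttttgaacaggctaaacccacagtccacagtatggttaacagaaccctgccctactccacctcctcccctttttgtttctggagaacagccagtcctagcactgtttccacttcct
Hba-a1: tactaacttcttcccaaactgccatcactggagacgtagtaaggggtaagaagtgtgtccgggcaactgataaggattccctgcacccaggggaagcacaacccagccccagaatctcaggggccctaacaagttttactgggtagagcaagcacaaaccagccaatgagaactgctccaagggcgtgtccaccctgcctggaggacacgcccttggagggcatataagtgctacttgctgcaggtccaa
They lie at chr19:34607707-34607956 on the plus strand (Ifit3b), chr19:34583279-34583528 on the plus strand (Ifit3), chr4:156200819-156201068 on the minus strand (Isg15), chr15:77728822-77729071 on the plus strand (Apol9b), chr1:173491319-173491568 on the minus strand (Ifi206), chr1:173599273-173599522 on the minus strand (Ifi213), chr7:141266425-141266674 on the minus strand (Irf7), chr19:11407411-11407660 on the plus strand (Ms4a4c), chr7:126676419-126676668 on the minus strand (Sult1a1) and chr11:32283422-32283671 on the plus strand (Hba-a1).
Isg15 held 3 overlapping matches that began at -78, -72 and -66 from the start, and Apol9b 2 that overlapped, at -37 and -31. Both Ifit3 copies held 2, at -156 and -122 in Ifit3 and at -188 and -154 in Ifit3b, with the same spacing. Ifi206 and Ifi213 held 1 each, at -40 and -73. Irf7 and Ms4a4c rose by 5.13 and 5.07 and held none in this window, as did Sult1a1 and Hba-a1. Ifi27l2a and Mx1 are named only.

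The type I interferon-stimulated list was higher almost throughout. Of its 70 tested members, 68 were called higher and 1 lower, with a median log2 fold change of 2.14 against -0.01 over all genes, and in 66 of them the groups did not overlap. Isg15, a ubiquitin-like modifier, was at 4.54 to 6.23 CPM in vehicle (median 5.86) and 158 to 212 CPM in pegIFN (median 194). Its protease Usp18, which also blocks the receptor and so ends the response, was at 10.9 to 14.7 CPM in vehicle (median 12.9) and 241 to 358 CPM in pegIFN (median 297), and the log2 fold change was 4.54 ± 0.12 (SE; adjusted p = 1.42e-19). Oas1a, which makes a messenger of the antiviral response, was at 27.5 to 37.3 CPM in vehicle (median 30.4) and 235 to 263 CPM in pegIFN (median 256), with a log2 fold change of 3.00 ± 0.065 (SE; adjusted p = 9.85e-22). Rsad2 (viperin) changed by 3.21 ± 0.12, Oas2 by 4.11 ± 0.16 and Ifit1 by 4.90 ± 0.17. For each of these genes the lowest pegIFN library was above the highest vehicle library. The exception was Ifi27l1, a neighbour of Ifi27l2a in the same family, which fell from a median of 67.5 CPM (54.4 to 83.9) to 46.7 CPM (41.9 to 59.7) (-0.52 ± 0.12; adjusted p = 0.00130) with groups that overlapped.

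Genes that went from near 0 to a clear level were few. Pydc3, a relative of the same DNA-sensor family, was at 0 to 0.279 CPM in vehicle (median 0) and 5.08 to 12.7 CPM in pegIFN (median 7.11), and the predicted gene Gm15433 at 0 to 0.160 CPM in vehicle (median 0) and 2.15 to 3.75 CPM in pegIFN (median 2.68). In the other direction Efna1, a ligand of Eph receptors, was at 1.13 to 3.24 CPM in vehicle (median 2.08) and 0 to 0.170 CPM in pegIFN (median 0.0814). No other gene had a median below 0.1 CPM in 1 group and at least 1 CPM in every library of the other.

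Signalling genes upstream of the antiviral programme moved in both directions. Among the 23 receptors, kinases, Stat and Irf factors, 5 were higher and 7 lower (median -0.08), against 21.7% and 22.3% of all genes. Those that rose included Stat2 and Irf9, parts of the ISRE-binding complex, and its amplifier Irf7. Irf7 was at 13.2 to 23.6 CPM in vehicle (median 17.5) and 556 to 690 CPM in pegIFN (median 633), Stat2 at 41.7 to 63.7 CPM in vehicle (median 48.3) and 136 to 209 CPM in pegIFN (median 171), and neither overlapped. Irf9 changed by 0.96 ± 0.087 (SE; adjusted p = 6.05e-09). The receptor chain Ifnar1 fell, from a median of 70.4 CPM (62.97 to 74.03) to 56.1 CPM (51.5 to 59.8), with no overlap (-0.32 ± 0.061; adjusted p = 1.59e-04). Ifnar2 differed by -0.09 ± 0.059 (adjusted p = 0.242) and the kinase Tyk2 by 0.02 ± 0.10 (adjusted p = 0.910), while Jak1 fell (-0.28 ± 0.047) and the interferon gamma receptor chain Ifngr1 rose (0.40 ± 0.11). Irf1, a factor of the interferon gamma response, went the other way from Irf7, from a median of 103 CPM (93.2 to 186) to 71.99 CPM (66.4 to 93.6), a log2 fold change of -0.71 ± 0.18 (SE; adjusted p = 0.00234).

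Jak2 itself was at 105 to 127 CPM in vehicle (median 123) and 112 to 138 CPM in pegIFN (median 128), and the groups overlapped (log2 fold change 0.09 ± 0.068, SE; adjusted p = 0.280). The counts do not separate the mutant from the normal allele. Jak3, the kinase of the common gamma chain receptors, fell from a median of 259 CPM (234 to 295) to 165 CPM (138 to 194) (-0.67 ± 0.09). Known targets of Stat5, the factor downstream of Jak2, were higher in 8 and lower in 8 of 23 members (median -0.26). The shares over all genes were 21.7% and 22.3%. Cish and Socs2, its feedback inhibitors, were at 25.9 to 41.3 CPM in vehicle (median 29.9) and 19.8 to 39.6 CPM in pegIFN (median 33.6) and at 21.4 to 46.4 CPM in vehicle (median 38.7) and 23.2 to 41.8 CPM in pegIFN (median 29.1), with log2 differences of 0.05 ± 0.20 and -0.26 ± 0.24 that did not pass the test (adjusted p = 0.869 and 0.420). Pim1, a survival kinase, fell from a median of 282 CPM (191 to 372) to 205 CPM (155 to 246) with overlap (-0.45 ± 0.16, SE; adjusted p = 0.0310), a call lost in 8 of 22 alternative fits. Cyclin D2, Ccnd2, rose from a median of 407 CPM (389.7 to 460.3) to 526 CPM (486 to 612) with no overlap (0.39 ± 0.069, SE; adjusted p = 9.91e-05).

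Brakes on cytokine signalling moved in both directions, with 5 higher and 6 lower of 20, against 21.7% and 22.3% of all genes. Besides Usp18 and Isg15, the receptor inhibitor Socs1 (0.52 ± 0.14) and the phosphatases Ptpn11 (0.45 ± 0.11) and Ptpn2 (0.17 ± 0.068, a call lost in 9 of 22 alternative fits) rose. Socs3, which restrains gp130 and G-CSF signalling, fell from a median of 32.8 CPM (17.2 to 57.99) to 15.5 CPM (5.80 to 25.98) (-1.21 ± 0.40, SE; adjusted p = 0.0192), a call lost without vehicle replicate 5 and without the 3 libraries that stood apart (adjusted p = 0.112 in the latter), and the ubiquitin ligase Cbl fell (-0.51) without overlap. Epor, the erythropoietin receptor, rose from a median of 26.4 CPM (24.5 to 30.8) to 49.8 CPM (33.8 to 59.98) with no overlap (0.88 ± 0.10, SE; adjusted p = 3.47e-07).

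Antigen presentation moved in opposite directions for its classes. Of 24 class I genes 20 were higher and 2 lower (median 0.51). H2-T24, a non-classical class I gene, was at 15.8 to 28.1 CPM in vehicle (median 21.4) and 75.04 to 94.97 CPM in pegIFN (median 77.9), and the loading chaperone Tapbp rose by 0.89 and the immunoproteasome subunit Psmb8 by 0.54. Tapbpl and the trimming peptidase Erap1 were the members called lower (-0.33 ± 0.13 and -0.20 ± 0.08), and both calls were lost without pegIFN replicate 1, 2, 4, 5 or 6 or vehicle replicate 1, 3 or 5. Class II genes showed the reverse, with 1 higher and 8 lower of 10 (median -0.77). Their master regulator Ciita fell from a median of 14.1 CPM (9.62 to 22.5) to 4.86 CPM (3.20 to 9.27) without overlap (-1.58 ± 0.29, SE; adjusted p = 1.80e-04). Ctss, a protease that trims the invariant chain, was the member that rose (1.24). Class II genes are also B cell and macrophage genes. The 6 B cell markers summed to 11.2 to 22.8 CPM in vehicle and 10.8 to 17.1 CPM in pegIFN. For the 4 macrophage markers the sums were 4.16 to 29.0 CPM in vehicle and 7.67 to 49.6 CPM in pegIFN. The part of both cell types in the class II values was not tested. In pegIFN replicate 3 the class II mean was the highest of its group at 5.47 on the log2 CPM scale.

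Sensors of foreign nucleic acid rose in 17 and fell in 4 of 24 cases (median 1.33). The RNA helicases Ddx58 (RIG-I) and Ifih1 (MDA5) changed by 2.18 ± 0.082 and 1.78 ± 0.07, and Adar, which edits double-stranded RNA so that they do not see it, by 1.42 ± 0.074. The adaptor of DNA sensing Tmem173 (STING) fell, from a median of 30.1 CPM (24.5 to 33.2) to 14.04 CPM (12.4 to 26.7), with replicate 3 alone overlapping vehicle (-0.92 ± 0.18, SE; adjusted p = 3.03e-04). Aim2 (-0.62 ± 0.14), another DNA sensor, and the kinase Irak1 (-0.12 ± 0.044) also fell, the latter a call lost in 10 of 22 alternative fits. Interferon-inducible GTPases were higher in 15 and lower in 1 of 20, the exception being Gbp4 (-1.12 ± 0.41; adjusted p = 0.0299), a call that 8 of 22 alternative fits lost (2 were lower without pegIFN replicate 3 or 4).

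Cell death genes changed in both directions, and both main pore formers rose. The Bcl-2 family decides whether mitochondria release cytochrome c: Bax and Bak1 form the pore, Bcl2, Bcl2l1 and Mcl1 hold it shut, and BH3-only proteins tip the balance. Bax was at 40.9 to 49.9 CPM in vehicle (median 44.1) and 63.3 to 91.7 CPM in pegIFN (median 78.7) and Bak1 at 83.02 to 102 CPM in vehicle (median 95.8) and 119.9 to 139 CPM in pegIFN (median 129.8). In both genes every pegIFN library was above every vehicle library, and the log2 fold changes were 0.83 ± 0.072 (SE; adjusted p = 2.83e-09) and 0.46 ± 0.059 (SE; adjusted p = 1.71e-06). Bok, another pore former, fell (-0.70 ± 0.28; adjusted p = 0.0397), a call lost in 8 of 22 alternative fits.

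The pro-survival members did not move together. Bcl2l1, which encodes Bcl-xL (chr2:152780668-152831728, minus strand), was at 44.5 to 74.5 CPM in vehicle (median 59.7) and 77.1 to 95.02 CPM in pegIFN (median 90.3), with no overlap and a log2 fold change of 0.55 ± 0.11 (SE; adjusted p = 4.22e-04). Mcl1, on which stem cells are known to depend, fell from a median of 375 CPM (305 to 431) to 253 CPM (233 to 281), again with no overlap (-0.51 ± 0.10, SE; adjusted p = 2.21e-04). Bcl2 was at 109 to 146 CPM in vehicle (median 130.4) and 105 to 135 CPM in pegIFN (median 116), a difference of -0.14 ± 0.077 that did not pass the test (adjusted p = 0.161), and Bcl2l2 fell slightly (-0.20 ± 0.06), a call lost without the 3 libraries that stood apart (adjusted p = 0.0581).

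Of the BH3-only genes, Bbc3 (Puma), a target of p53, rose from a median of 13.7 CPM (8.31 to 17.3) to 21.6 CPM (16.3 to 26.3) with a small overlap (0.67 ± 0.17, SE; adjusted p = 0.00246). Bid, which links death receptors to the mitochondria, rose as well (0.33 ± 0.083). Bmf fell from a median of 2.25 CPM (1.92 to 2.59) to 0.778 CPM (0.217 to 1.58) (-1.40 ± 0.34, SE; adjusted p = 0.00205). Bcl2l11 (Bim) and Pmaip1 (Noxa) had differences of -0.21 ± 0.088 and 0.45 ± 0.31 (adjusted p = 0.0518 and 0.243). The list as a whole gave 2 higher and 1 lower of 7 (2 lower without vehicle replicate 3 or 6), against 21.7% and 22.3% of all genes.

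Downstream of the pore, 6 of 18 genes rose and 4 fell (2 without pegIFN replicate 2), against 21.7% and 22.3% of all genes. Those that rose included contents of the mitochondrial space: cytochrome c (Cycs, 0.63 ± 0.11), Endog (0.79 ± 0.13) and Htra2 (0.49 ± 0.061), for which the groups did not overlap. Birc3, an inhibitor of apoptosis, fell (-0.29 ± 0.094). Casp9 and its platform Apaf1 differed by -0.01 ± 0.079 and 0.03 ± 0.062 (adjusted p = 0.967 and 0.741). On the death receptor side 4 of 15 genes were called higher and 3 lower. Casp8, the initiator, rose from a median of 87.96 CPM (79.2 to 93.8) to 125 CPM (109 to 134). Cflar, the protein that holds it inactive, fell from a median of 84.2 CPM (79.7 to 94.3) to 67.6 CPM (57.9 to 70.1). Neither gene overlapped (0.49 ± 0.054 and -0.37 ± 0.062). Of 16 necroptosis and pyroptosis genes 4 were called higher and 2 lower (median 0.03). Counts of both lists without single libraries are given at the end. Zbp1, a sensor that starts necroptosis, was at 8.08 to 18.3 CPM in vehicle (median 11.8) and 140 to 195 CPM in pegIFN (median 159.7), and its effectors Mlkl and Ripk3 rose by 0.57 and 0.22.

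**Figure D2:**
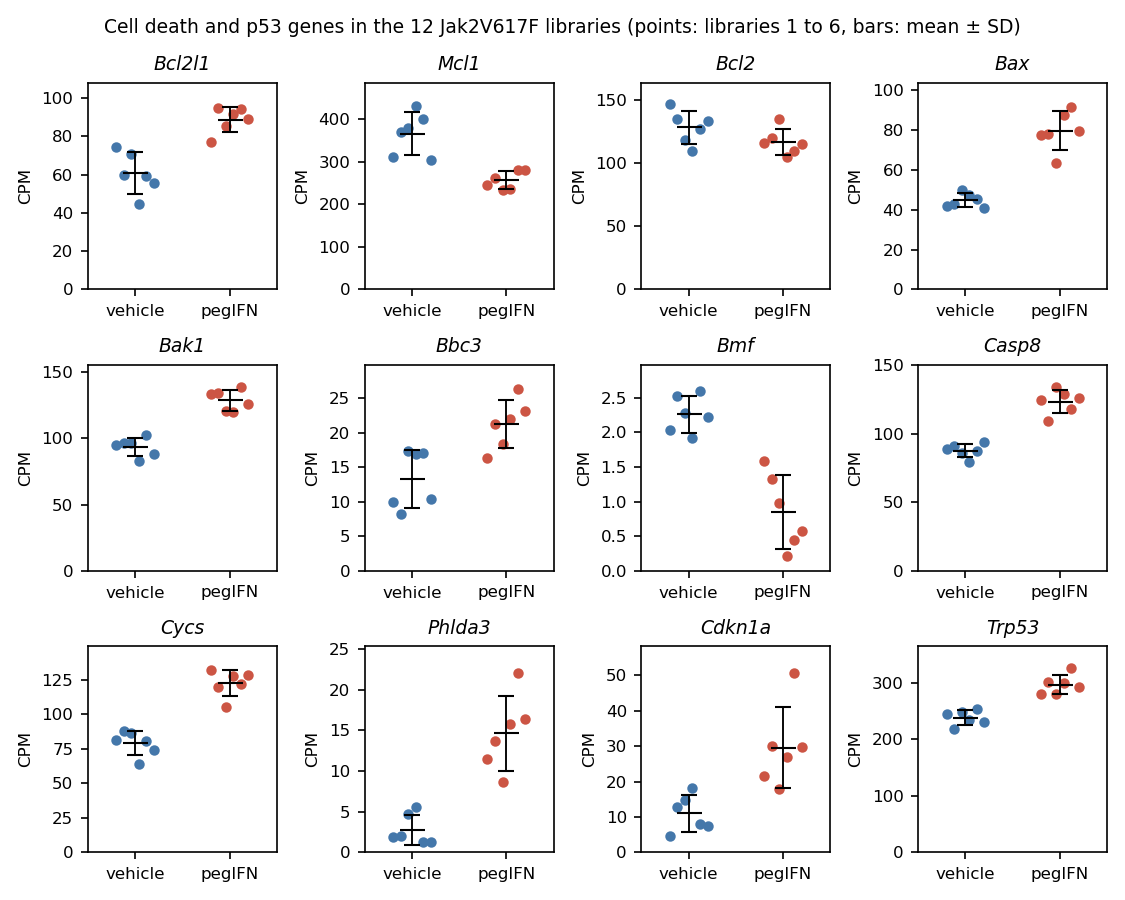
Each panel gives CPM of 1 gene in the 6 vehicle (blue) and 6 pegIFN (red) Jak2V617F libraries, with the group mean and SD as black bars and each axis starting at 0. Bax, Bak1, Casp8, Cycs and Bcl2l1 lie wholly above vehicle with pegIFN and Mcl1 wholly below, whereas Bcl2 overlaps.

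A set of p53 targets rose with pegIFN while others fell. Phlda3, an inhibitor of Akt, went from a median of 1.92 CPM (1.28 to 5.54) to 14.7 CPM (8.66 to 22.02) with no overlap (2.40 ± 0.31, SE; adjusted p = 2.42e-06). The cyclin-dependent kinase inhibitor Cdkn1a (p21; chr17:29090979-29100722, plus strand) was at 4.64 to 18.1 CPM in vehicle (median 10.4) and 17.9 to 50.6 CPM in pegIFN (median 28.4), where 1 vehicle library reached the lowest pegIFN library, and the log2 fold change was 1.42 ± 0.32 (SE; adjusted p = 0.00116). Aen, a nuclease of p53-dependent apoptosis, rose by 0.79 ± 0.075 and Sesn2 by 0.82 ± 0.12. Over the list, 12 of 31 rose and 7 fell (median 0.14), against 21.7% and 22.3% of all genes, so the lower count was near that share. It was 4 without pegIFN replicate 5 or vehicle replicate 4. Members that fell included Sesn1 (-0.55 ± 0.074), the repair factor Ddb2 (-0.53 ± 0.079), and, chosen after its values were seen, Plk2 (-1.59 ± 0.48), whose call was lost without the 3 libraries that stood apart (adjusted p = 0.0904). Trp53 itself was at 218 to 253 CPM in vehicle (median 239) and 279.7 to 326 CPM in pegIFN (median 296) (0.32 ± 0.058, SE; adjusted p = 1.15e-04).

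Genes of entry into the cell cycle rose, and few genes of cell division passed the test. Of 37 genes of G1/S and replication 22 were higher and 0 lower (median 0.29). The licensing factor Cdt1 rose by 0.42 ± 0.084, the helicase subunit Mcm6 by 0.35 ± 0.072 and cyclin E1 (Ccne1) by 0.80 ± 0.15. Among 33 genes of G2/M and mitosis 0 were higher and 2 lower, with a median of -0.01. Mki67 was at 727 to 1066 CPM in vehicle (median 968) and 709 to 933 CPM in pegIFN (median 841), a difference of -0.16 ± 0.10 (adjusted p = 0.219). The mitotic mean was 6.05 in vehicle replicate 4 and 6.43 to 6.69 in the other 5 vehicle libraries, against 6.35 to 6.54 with pegIFN. Leaving out pegIFN replicate 5 or vehicle replicate 1 or 6 left 1 lower. Without vehicle replicate 4 the count was 0 higher and 4 lower, with a median of -0.08. Kif23, a motor of the dividing cell's midbody, was below vehicle in all 6 pegIFN libraries (-0.60 ± 0.12, SE; adjusted p = 2.69e-04), and the spindle protein Nusap1 also fell (-0.42 ± 0.15), a call lost without pegIFN replicate 5 or vehicle replicate 1 or 6. Among inhibitors of the cycle, Cdkn1c (p57), a guardian of quiescence, fell from a median of 9.76 CPM (8.02 to 14.7) to 3.87 CPM (2.86 to 7.83) without overlap (-1.22 ± 0.22, SE; adjusted p = 1.27e-04), opposite to Cdkn1a.

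Genes that mark and maintain long-term stem cells fell. Of 38 members 30 were lower and 2 higher, with a median log2 fold change of -0.67. Without pegIFN replicate 3 the counts were 30 and 3 and the median -0.78. Sult1a1, a sulfotransferase, was at 5.93 to 13.7 CPM in vehicle (median 11.5) and 0.428 to 1.40 CPM in pegIFN (median 0.796), a log2 fold change of -3.53 ± 0.31 (SE; adjusted p = 6.43e-09). Fgd5, an exchange factor used as a stem cell reporter, went from a median of 26.5 CPM (19.6 to 37.2) to 3.58 CPM (2.71 to 10.98) (-2.55 ± 0.32, SE; adjusted p = 2.91e-06). Procr (EPCR), a surface marker of the most primitive cells, was at 25.1 to 41.4 CPM in vehicle (median 36.5) and 6.30 to 29.1 CPM in pegIFN (median 9.91), and its highest pegIFN library, replicate 3 at 29.1 CPM, was the only one within the vehicle range (-1.46 ± 0.30, SE; adjusted p = 5.29e-04). The transcription factor Hlf ran at 194 to 432 CPM in vehicle (median 254) and 57.97 to 212 CPM in pegIFN (median 92.4) (-1.38 ± 0.27, SE; adjusted p = 3.14e-04), with replicate 3 again the highest at 212 CPM, and Mecom, needed for stem cell self-renewal, changed by -0.94 ± 0.19 (SE; adjusted p = 4.14e-04). Meis1 fell (-0.17 ± 0.061; adjusted p = 0.0266), a call lost in 6 of 22 alternative fits.

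The members that rose were Ly6a and Ifitm3, both known interferon-inducible genes. Ly6a encodes Sca1, which is also part of the sort gate, and went from a median of 53.1 CPM (37.5 to 64.7) to 258 CPM (151 to 357) with no overlap (2.31 ± 0.20, SE; adjusted p = 7.72e-09). Of the other gate genes, Kit fell from a median of 605 CPM (502 to 771) to 319 CPM (275 to 462) without overlap (-0.87 ± 0.14, SE; adjusted p = 2.49e-05) and Slamf1 (CD150) was at 28.01 to 46.8 CPM in vehicle (median 37.8) and 29.9 to 46 CPM in pegIFN (median 36.3) (-0.01 ± 0.11; adjusted p = 0.943). Cd48, against which the cells were sorted, rose from a median of 12.7 CPM (9.20 to 14.6) to 33.4 CPM (24.2 to 40.98) without overlap (1.42 ± 0.18, SE; adjusted p = 3.10e-06). Ptprc, the gene of CD45, fell (-0.52). Since RNA of gate genes differed between the groups, the gate may have held a different mix of cells in each. The part of such a difference in the stem cell and lineage results was not tested.

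The mean of the stem cell list put pegIFN replicate 3 apart. It was 6.14 to 6.33 in vehicle, 5.31 to 5.44 in 5 pegIFN libraries and 6.10 in replicate 3, whereas the interferon-stimulated mean of replicate 3, 7.39, was the highest of the 6. Early erythroid genes were lowest of the pegIFN group in the same library, at 5.64 against 6.15 to 6.48, as were the proteasome (6.88 against 7.07 to 7.16) and ribosome biogenesis (7.12 against 7.30 to 7.40). Its interferon-stimulated genes were as high as in the other pegIFN libraries, while these other lists lay nearer to vehicle.

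**Figure D3:**
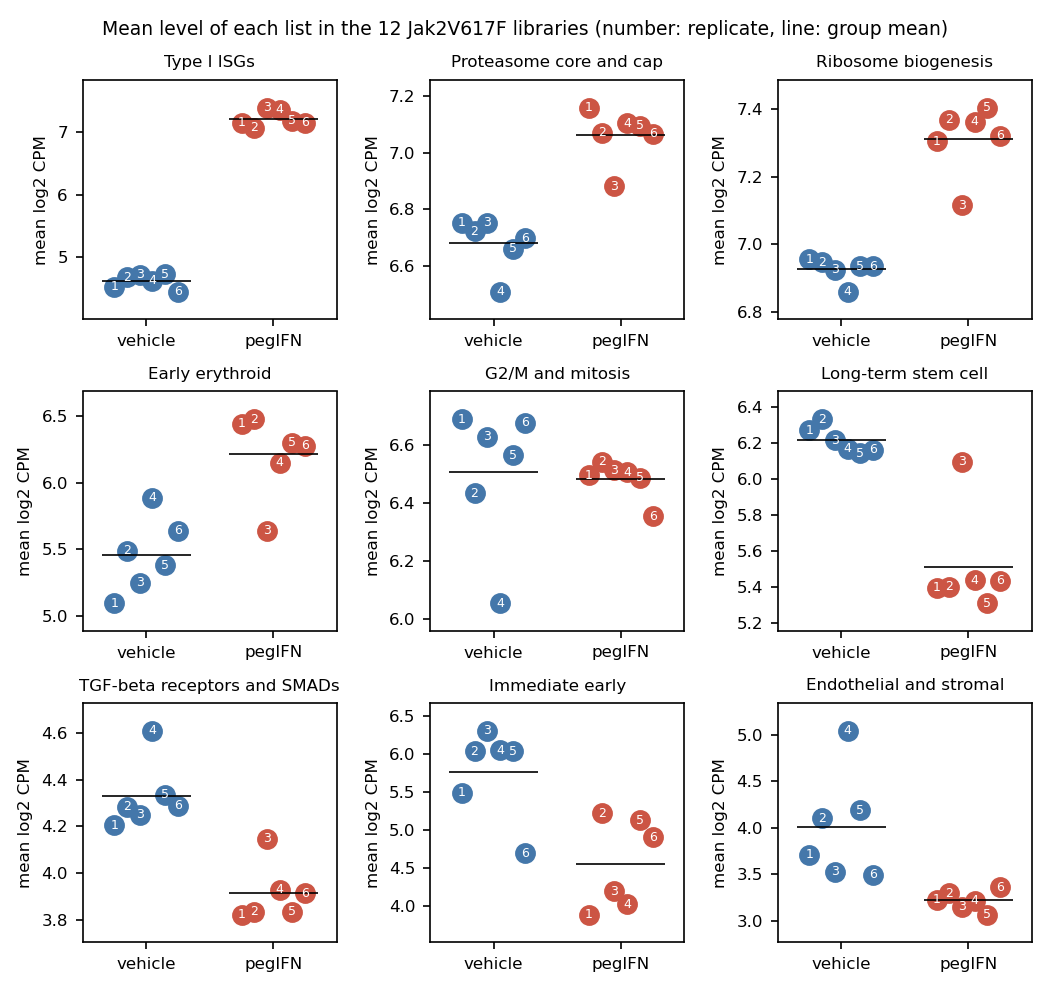
The mean log2 CPM of 9 gene lists is plotted for each Jak2V617F library, numbered by replicate, with blue for vehicle, red for pegIFN and a black line at the group mean. Replicate 3 of pegIFN lies with its group for interferon-stimulated genes (7.39) but next to vehicle for long-term stem cell genes (6.10), and replicate 4 of vehicle lies apart for mitotic (6.05) and for endothelial and stromal genes (5.05).

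Quiescence regulators fell with the stem cell genes, 25 of 30 being lower and 2 higher (median -0.60), and 20 lower without the 3 libraries that stood apart. Ndn, an imprinted growth suppressor, was at 2.29 to 8.09 CPM in vehicle (median 3.75) and 0.271 to 1.92 CPM in pegIFN (median 0.750) (-2.26 ± 0.38), and Sesn3 and Ccng2, both targets of Foxo factors, changed by -1.10 ± 0.12 and -0.94 ± 0.15. Foxo1 changed by -0.48 ± 0.078. Those that rose were Cdkn1a and the mitochondrial superoxide dismutase Sod2 (0.29 ± 0.05). TGF-beta signalling, which holds stem cells quiescent, was lower in 17 and higher in 3 of 28 genes. Ltbp3, a latent TGF-beta binding protein, went from a median of 123 CPM (115 to 163) to 63.5 CPM (57.7 to 78.6) and the activin receptor Acvr1b from a median of 87.7 CPM (72.5 to 98.6) to 49.2 CPM (37.4 to 57.96), neither with overlap. The ligand Tgfb1 rose, from a median of 528 CPM (384 to 572) to 685 CPM (619 to 802) (0.47 ± 0.11, SE; adjusted p = 0.00111), as did Tgfbr3 (0.23 ± 0.071) and Smad2 (0.12 ± 0.049). The Smad2 call was lost in 13 of 22 alternative fits. The Tgfbr3 call was lost in 2, with the replicate number as a block and without the 3 libraries that stood apart. Without those libraries 1 member of the list was higher.

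A heptad of transcription factors binds together at genes of stem and progenitor cells. Of 7 tested, Erg (-0.58 ± 0.11) and Lyl1 (-0.40 ± 0.09) fell, and the other 5, Gata2 (0.18 ± 0.091; adjusted p = 0.112) among them, did not pass the test (1 did, as higher, without pegIFN replicate 3 or vehicle replicate 3). Receptors for adhesion and homing were lower in 8 and higher in 3 of 26, against 22.3% and 21.7% of all genes. Robo4, which anchors stem cells in the marrow, fell from a median of 23.8 CPM (20.1 to 36.6) to 3.76 CPM (2.27 to 12.1) and the junction protein Jam2 from a median of 7.68 CPM (6.62 to 12.2) to 1.46 CPM (0.857 to 1.85), without overlap (-2.33 ± 0.32 and -2.57 ± 0.29). The integrin chain Itgal (0.94 ± 0.18), Cd44 (0.14 ± 0.051) and Icam2 (0.20 ± 0.074) rose, 1 of the 3 without vehicle replicate 1, and the calls of Cd44 and Icam2 were lost in 10 and 8 of 22 alternative fits. Without vehicle replicate 4, whose endothelial and stromal sum was the highest, 8 of the list were lower. The part of endothelial cells, which also express Robo4 and Jam2, was not tested.

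Immediate early genes, which switch on within minutes of a stimulus, were lower in 25 and higher in 1 of 37 cases (median -1.24), and in 17 without the 3 libraries that stood apart. Nr4a1 was at 40.3 to 411 CPM in vehicle (median 286) and 6.84 to 69.8 CPM in pegIFN (median 29.6), Egr1 at 335 to 1054 CPM in vehicle (median 837) and 82.8 to 357 CPM in pegIFN (median 186) and Fos at 505 to 1655 CPM in vehicle (median 1293) and 108 to 625 CPM in pegIFN (median 332). The groups overlapped in all 3 genes, and vehicle replicate 6 was low: its list mean was 4.69 against 5.49 to 6.30 in the other vehicle libraries. The log2 fold changes were -2.94 ± 0.69 (SE; adjusted p = 0.00182), -1.94 ± 0.41 (SE; adjusted p = 6.87e-04) and -1.72 ± 0.50 (SE; adjusted p = 0.00817). The Fos call was lost without the 3 libraries that stood apart (adjusted p = 0.0685). The member that rose was Myc (0.28 ± 0.079; adjusted p = 0.00640). Inflammatory genes of the NF-kB pathway fell in 12 and rose in 3 of 28, with Nfkbiz, an inducible regulator of the pathway, at -1.78 ± 0.28. Sod2, Nfkbib (0.56 ± 0.10) and Il1a (1.21 ± 0.36) were the members that rose, Il1a not without the 3 libraries that stood apart (adjusted p = 0.0546).

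Lineage genes moved unevenly. In the early erythroid list 22 of 31 rose and 1 fell (median 0.74). Every pegIFN library lay above every vehicle library in 3 members and below in 1. The list means overlapped, at 5.09 to 5.89 in vehicle and 5.64 to 6.48 in pegIFN. Gata1, the master factor of red cells and megakaryocytes, went from a median of 76.2 CPM (61.4 to 99.5) to 151 CPM (105 to 165) without overlap (0.91 ± 0.15, SE; adjusted p = 5.89e-05), and Klf1, which drives globin expression, from a median of 17.3 CPM (11.96 to 26.6) to 55.5 CPM (21.5 to 63.8) (1.44 ± 0.25, SE; adjusted p = 8.54e-05). Replicate 3 at 21.5 CPM was the only pegIFN library within the vehicle range of Klf1. The member that fell was Cnrip1 (-1.52 ± 0.21). Genes of mature red cells went the other way, with 12 of 19 lower and 1, the interferon-stimulated exonuclease Isg20, higher (2.53 ± 0.081), and 2 higher without pegIFN replicate 3 or vehicle replicate 4.

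Slc4a1, the anion exchanger of the red cell membrane (chr11:102348824-102366203, minus strand), was at 8.93 to 36.8 CPM in vehicle (median 28.1) and 0 to 3.78 CPM in pegIFN (median 0.364), the steepest fall among genes with a mean of at least 1 on the log2 CPM scale (-4.90 ± 0.86, SE; adjusted p = 1.43e-04). The globin genes Hba-a1 and Hbb-b1 were at 22.6 to 73.1 CPM in vehicle (median 38.8) and 0.610 to 10.2 CPM in pegIFN (median 2.71) and at 59.9 to 119.7 CPM in vehicle (median 76.1) and 2.19 to 18.1 CPM in pegIFN (median 9.14), with no overlap (-3.50 ± 0.60 and -3.07 ± 0.56), and Alas2, which starts haem synthesis in red cells, changed by -2.88 ± 0.48. Globin copies are near-identical, so counts of single copies are uncertain. The 5 erythroid markers summed to 100 to 249.4 CPM in vehicle and 5.09 to 39.0 CPM in pegIFN, and the part of mature red cells carried into the sort was not tested.

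Megakaryocyte genes were higher in 5 and lower in 4 of 30, against 21.7% and 22.3% of all genes. The higher count was 3 without vehicle replicate 2 or without the 3 libraries that stood apart, and 8 without vehicle replicate 3. Thrombospondin, Thbs1, rose from a median of 24.7 CPM (8.88 to 34.8) to 90.3 CPM (40.97 to 100.1) (1.79 ± 0.35, SE; adjusted p = 3.31e-04), and Mmrn1 fell (-1.11 ± 0.20). Vwf, a marker of platelet-biased stem cells, was at 461 to 844 CPM in vehicle (median 552) and 414 to 672 CPM in pegIFN (median 532) (adjusted p = 0.612) and Pf4 at 129 to 382 CPM in vehicle (median 276) and 320.1 to 492 CPM in pegIFN (median 389.7) (adjusted p = 0.184). Granulocyte and monocyte genes rose in 2 and fell in 2 of 35, against the same shares of all genes. Those that rose were the monocyte genes Cx3cr1 (1.30 ± 0.37) and Ly6c2 (1.25 ± 0.40), and those that fell Gstm1 (-0.70 ± 0.15) and the G-CSF receptor Csf3r (-0.67 ± 0.27). The Csf3r call was lost in 11 of 22 alternative fits, and the lower count was 4 without vehicle replicate 1 and 1 without pegIFN replicate 2, 4, 5 or 6 or vehicle replicate 2, 4 or 5. Mpo spread from 63.1 to 772 CPM within vehicle and gave no call (0.23 ± 0.50; adjusted p = 0.746).

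Early lymphoid genes fell in 10 and rose in 1 of 20 (median -0.68). The receptor Flt3, which marks lymphoid-primed progenitors, went from a median of 36.04 CPM (14.5 to 61.6) to 7.88 CPM (4.98 to 14.5), where the ranges met but did not cross (-2.06 ± 0.33, SE; adjusted p = 4.27e-05), and Satb1 and Notch1 changed by -1.94 ± 0.30 and -0.80 ± 0.12. Cd34, low in LT-HSCs, fell further, from a median of 197 CPM (157 to 236) to 95.4 CPM (63.2 to 145). Tcf3 was the member that rose (0.20 ± 0.075), a call lost in 8 of 22 alternative fits. The T and NK list had 3 higher and 3 lower of 11 genes (5 lower without pegIFN replicate 3), against 21.7% and 22.3% of all genes. Ccl5 was at 0.0615 to 0.735 CPM in vehicle (median 0.471) and 2.15 to 5.18 CPM in pegIFN (median 3.51), and Gzmb and Nkg7 rose by 2.31 and 0.86. Those that fell were Cd247 (-2.44 ± 0.41), Klrb1c (-2.30 ± 0.44) and Gata3 (-0.50 ± 0.16), and Cd3e, Cd3d and Cd3g were at or near 0.

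Genes of protein and energy production rose together by small amounts. Ribosome biogenesis was higher in 44 of 46 (median 0.39), mitochondrial ribosomal proteins in 70 of 77 (median 0.39), the proteasome in 37 of 38 (median 0.37) and tRNA synthetases in 21 of 22 (median 0.41). In each of these lists 0 members were called lower, also with upper-quartile scaling, which left 40, 66, 37 and 21 higher. Rrp9, a nucleolar protein of ribosome assembly, was at 47.99 to 58.8 CPM in vehicle (median 52.2) and 71 to 98.1 CPM in pegIFN (median 85.1) (0.71 ± 0.065, SE; adjusted p = 6.43e-09), and the proteasome ATPase Psmc5 at 81 to 94.04 CPM in vehicle (median 91.6) and 121 to 142 CPM in pegIFN (median 136) (0.59 ± 0.069, SE; adjusted p = 5.56e-07). Cytosolic ribosomal proteins were called higher in 39 of 79, and in 61 without pegIFN replicate 3, 26 with upper-quartile scaling and 22 with the replicate number as a block. Myc and its partner Max rose by 0.28 and 0.36, and Mxd4 and Mxi1, which oppose them, fell (-0.52 and -0.41).

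Respiratory chain genes of the nucleus and of the mitochondrial genome parted. Of the nuclear genes 66 of 76 rose and 0 fell (median 0.33), for example Sdhb of complex II, from a median of 74.5 CPM (58.8 to 79.6) to 106 CPM (91.7 to 109). Of the 13 mitochondrially encoded genes 0 rose and 1 fell (median -0.19). The exception, mt-Cytb, went from a median of 2881 CPM (2724 to 3319) to 2318 CPM (1800 to 2986) (-0.33 ± 0.12, SE; adjusted p = 0.0268), a call that 7 of 22 alternative fits lost. With 1 library left out, from 0 to 5 of the 13 were lower. In the stress response list 20 of 35 rose and 4 fell: the folate enzyme Mthfd2 rose by 0.86 ± 0.13 and Ddit3 (CHOP) by 0.56 ± 0.10, while Ppp1r15a, which ends the response, fell (-1.29 ± 0.24).

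**Figure D4:**
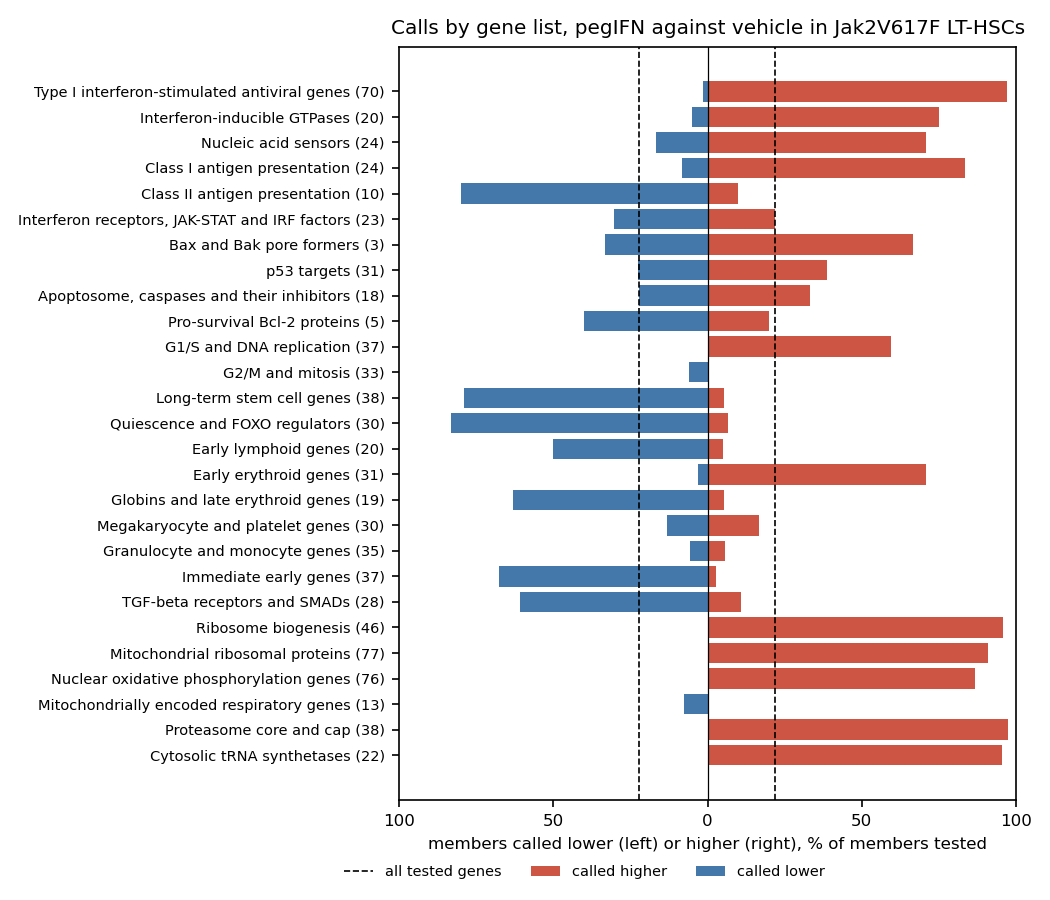
For 27 gene lists the bars give the percentage of tested members called higher (red, to the right) or lower (blue, to the left) with pegIFN in Jak2V617F LT-HSCs, with the number tested in brackets and dashed lines at the shares over all genes (21.7% and 22.3%). Interferon-stimulated, ribosome, proteasome and tRNA synthetase lists reach far to the right, and stem cell, quiescence and class II lists far to the left.

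The wild-type LT-HSCs of the same mice allow the Jak2V617F response to be set beside a wild-type one. The Jak2V617F and the wild-type cells came from different, congenic donors, and their Xist and Y-linked levels differed as given above. For every difference between genotypes, the mutation, the donor strain and the donor sex cannot be told apart. In wild-type cells 4474 genes were higher (28.2%) and 4553 lower (28.7%). Of the genes higher in Jak2V617F cells 3103 (90% of them and 69.4% of the wild-type calls) were higher in wild-type cells as well, of the lower ones 3151 (88.9% and 69.2%), and 4 genes were called in opposite directions. These were Glipr1 (0.27 in Jak2V617F and -0.28 in wild-type cells), Gm16140 (0.31 and -0.38), Amigo2 (-0.38 and 0.48) and Myb, a factor of progenitor growth (-0.24 and 0.21). Their Jak2V617F calls were lost in 4, 14, 11 and 10 of 22 alternative fits. The pairs of libraries came from the same mice. In the fit without a mouse term no gene differed in its response between genotypes (0 of 15879, 0%; smallest adjusted p = 0.0684), with 1338 at an unadjusted p under 0.05. DESeq2 called 10 higher and 28 lower, and limma-voom, which modelled the mouse by a correlation, 84 and 197. With the mouse as a block in edgeR, 203 genes (1.28%) responded more strongly upwards in Jak2V617F cells or fell less, and 325 (2.05%) the reverse. These counts moved with single mice. The libraries that stood apart on Xist were Jak2V617F pegIFN replicate 1 and wild-type vehicle replicate 4. Without the 2 mice of these libraries the counts were 42 and 62. Without the mouse of Jak2V617F pegIFN replicate 3 they were 94 and 197, and without that of Jak2V617F vehicle replicate 4 they were 104 and 148. The vehicle replicate 4 libraries of both genotypes came from the same mouse, so the first and the last of these settings overlap.

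Interferon-stimulated genes were called as different between the genotypes at about the share of all genes. With the mouse as a block 1 and 2 of 70 members differed upwards and downwards, against 1.28% and 2.05% of all genes tested. The median difference of the list was -0.01. Oas1g had the larger response in Jak2V617F cells (a difference of 0.43 ± 0.10, SE; adjusted p = 0.0329), and Oas2 and Isg15 the smaller. Isg15 showed a log2 fold change of 5.06 in Jak2V617F and 5.45 in wild-type cells, a difference of -0.40 ± 0.10 (SE; adjusted p = 0.0324), and Oas2 a difference of -0.26 ± 0.059 (SE; adjusted p = 0.0238). Without the mouse of vehicle replicate 4 the list held 0 such genes (adjusted p = 0.0549, 0.0682 and 0.0561 for Oas1g, Isg15 and Oas2), and without the mouse of pegIFN replicate 3 the call of Oas1g was lost (adjusted p = 0.0650).

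Cdkn1a had the smallest p among the genes that responded more in Jak2V617F cells. It rose by 1.42 in Jak2V617F and by 0.24 in wild-type cells, and the difference with the mouse as a block was 1.16 ± 0.12 (SE; adjusted p = 8.80e-05). Wild-type libraries ran from 5.09 to 17.4 CPM in vehicle and from 8.85 to 18.1 CPM in pegIFN, so that those groups overlapped. Of the 31 p53 targets, whose median difference was 0.36, 9 were called with a difference above 0 and 1 with a difference below 0. They included Sesn2, with a difference of 0.60 ± 0.11 (SE; adjusted p = 0.0124), and Ccng1 and Trp53inp1, chosen after their values were seen, with 0.44 ± 0.069 (SE; adjusted p = 0.00549) and 0.80 ± 0.10 (SE; adjusted p = 0.00198). For Trp53inp1 the log2 fold change was -0.10 in Jak2V617F and -0.91 in wild-type cells. The member called below 0 was Trp53 (-0.23 ± 0.058, SE; adjusted p = 0.0408). Leaving out the mouse of pegIFN replicate 3 or that of vehicle replicate 4 gave 7 and 7 members called above 0 and 0 below. The call of Trp53 was then lost (adjusted p = 0.0696 and 0.0913) and that of Cdkn1a was kept (adjusted p = 8.45e-05 and 4.56e-04). Bbc3 had a difference of 0.50 ± 0.14 (SE; adjusted p = 0.0566), and Bax, which rose in both genotypes, of 0.04 ± 0.094 (SE; adjusted p = 0.866).

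Mitotic genes differed the other way. Of 33 members 25 were called as responding less in Jak2V617F cells and 0 as responding more (median difference -0.46). In wild-type cells 22 rose with a median of 0.44. The mitotic mean ran from 5.34 to 6.34 in wild-type vehicle and from 6.33 to 6.36 in wild-type pegIFN. In Jak2V617F cells it ran from 6.05 to 6.69 and from 6.35 to 6.54. The part of the vehicle level in the difference was not tested. Without the mouse of vehicle replicate 4, the Jak2V617F library of lowest mitotic mean, 15 members were called as responding less (median difference -0.45). That count was 16 without the mouse of pegIFN replicate 3 (-0.48). Mki67 changed by -0.16 in Jak2V617F and 0.27 in wild-type cells, a difference of -0.44 ± 0.10 (SE; adjusted p = 0.0203). Mcl1 fell less in Jak2V617F than in wild-type cells, with a difference of 0.23 ± 0.053 (SE; adjusted p = 0.0273), a call lost when the mouse of pegIFN replicate 3 or that of vehicle replicate 4 was left out (adjusted p = 0.0653 and 0.0566). Among stem cell genes Meis1 changed by -0.17 against -0.59 in wild-type cells, a difference of 0.42 ± 0.062 (SE; adjusted p = 0.00355). Of the 38 members of its list 4 were called with a difference above 0, the others being Alcam, Angpt1 and Pdzk1ip1, and 0 below. Without the mouse of pegIFN replicate 3 the count called above 0 was 3, and the call of Alcam was lost (adjusted p = 0.0555).

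**Figure D5:**
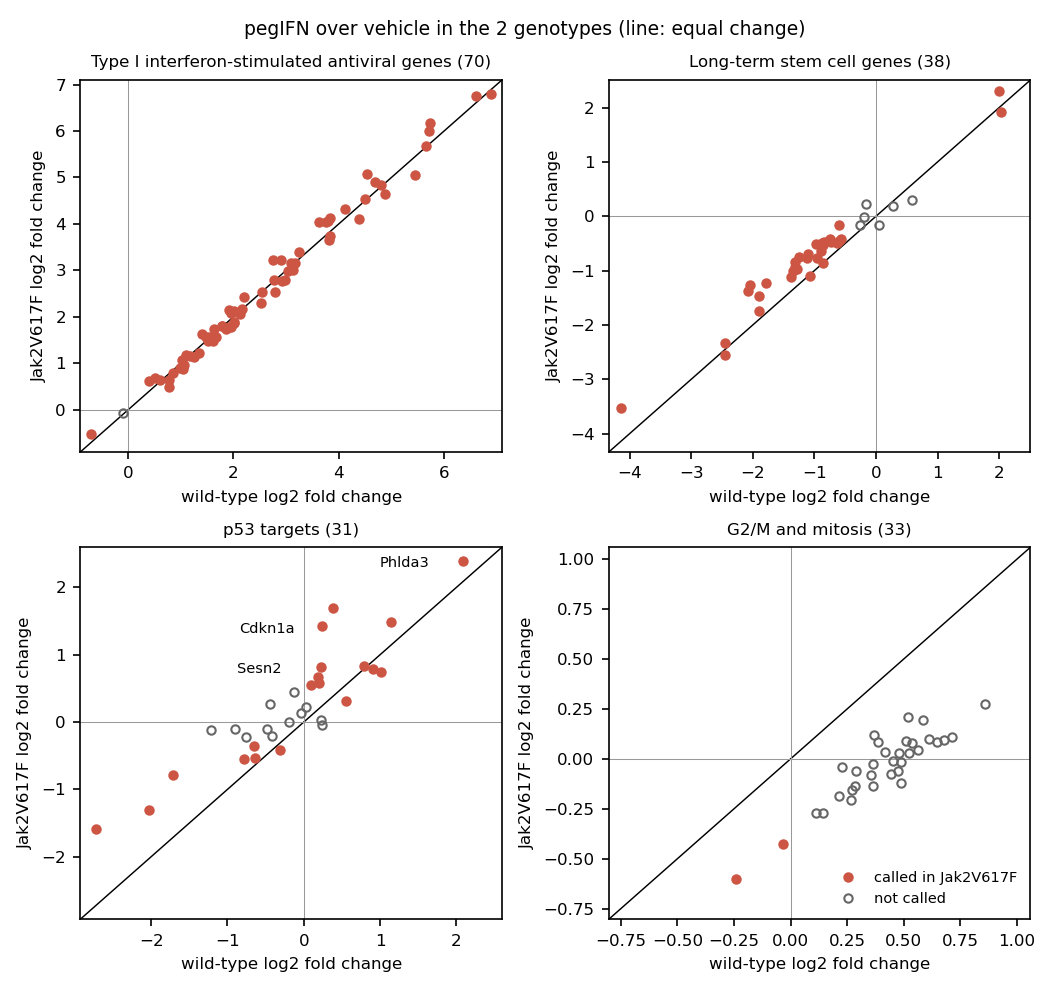
The log2 fold change of pegIFN over vehicle in wild-type cells (horizontal axis) is set against that in Jak2V617F cells (vertical axis) for members of 4 lists, filled where called in Jak2V617F cells, with a line of equal change. Interferon-stimulated genes lie along the line, all 33 mitotic genes lie below it, and Cdkn1a lies above it at 1.42 against 0.24.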

How the data were processed

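RNA of sorted LT-HSCs was extracted (PicoPure), primed with oligo d(T), made into libraries (NEB Next Ultra II) and sequenced as single-end 75-base reads on a NextSeq 550, per the labels' protocols. The deposited values are expected counts per gene, made by the authors with RSEM 1.2.30 after STAR 2.5.2a and cutadapt 1.11, against GRCm38, per the submitters' processing notes, and 16.8% of them were not whole. Counting by strand is not given in the sources used here. Here they were rounded and fitted with edgeR 4.0.16 (R 4.3.3): TMM factors, a minimum count of 10 by group, group means over all 24 libraries, a robust quasi-likelihood F test without a block, and Benjamini-Hochberg adjustment over the 15879 tested genes, called at an adjusted p under 0.05. The filter kept 99.95% of all counts. SE is the log2 fold change divided by the square root of F, CPM is the count scaled by TMM library sizes (not per length, so levels are not compared between genes), and list means use log2 CPM with a prior count of 2. Depth was at least 24.6 M counts per Jak2V617F library, so counting error is small for genes above a few CPM. DESeq2 1.42.0, limma 3.58.1 and the other alternatives are in the closing section. Tests were first run on simulated data.

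Each mouse gave 1 library per genotype. Libraries of the same mouse deviated together (r from 0.12 to 0.42 over 12 pairs), so the mouse is a block for differences between genotypes, with pairs taken from library names. No libraries within a group were identical.

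The members, the 56 gene lists (1445 symbols, 1433 in the table) and the tests were chosen with earlier results of these data known. Named genes are the 10 largest increases and decreases among called genes whose mean reached 1 on the log2 CPM scale, the 4 or fewer called members per list of smallest p, the 2 or fewer that moved against their list, genes switched on or off, a fixed set, and the 10 smallest p in each direction for differences between genotypes. Outside this rule, Aim2, Alcam, Amigo2, Ccng1, Gata3, Glipr1, Gm16140, Icam2, Ifngr1, Il1a, Irak1, Jak1, Klrb1c, Myb, Oas1g, Pdzk1ip1, Plk2, Ptpn11, Ptpn2, Smad2, Trp53inp1 and Tyk2 were chosen after their values were seen. Some genes that the rule names are not reported here.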

Additional observations from a re-analysis of the deposited data

Results flagged for a closer look

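Chance sets about 5% of groups of 6 apart by this measure, in which the gap of the highest or lowest library to its nearest neighbour, as a share of the range, is above the 95% critical value of Dixon for 6 values. It was met in 40 of 502 groups of 6 Jak2V617F libraries tested, for the genes, lists and library measures named. The measure was taken on log2 CPM for genes, on mean log2 CPM for lists and on the unlogged value for library measures. Values are printed as CPM for genes and as mean log2 CPM for lists, against the range of the other 5 libraries of the group. The gap in the printed CPM of a gene can therefore fall below the critical value. PegIFN replicate 3 stood apart in Ccne1 (21.2 against 33.5 to 38.6), Erg (162 against 92.2 to 112) and Fgd5 (11 against 2.71 to 3.75). The same library also differed in Gata1 (105 against 147 to 165), Hspd1 (627 against 736 to 808) and Hspe1 (150 against 208 to 253). Further cases there were Irf1 (93.6 against 66.4 to 74.4), Klf1 (21.5 against 47.9 to 63.8) and Mecom (77.8 against 34.9 to 41.6). To these it added Sdhb (91.7 against 105 to 109), Tmem173 (26.7 against 12.4 to 14.7) and the list of adhesion and homing receptors (5.99 against 5.74 to 5.82). It differed as well in the list of class II antigen presentation (5.47 against 4.45 to 4.74), the list of cytosolic ribosomal proteins (9.23 against 9.46 to 9.56) and the list of long-term stem cell genes (6.1 against 5.31 to 5.44). More such values were the list of proteasome core and cap (6.88 against 7.07 to 7.16), the list of ribosome biogenesis (7.12 against 7.3 to 7.4) and the list TGF-beta receptors and SMADs (4.15 against 3.82 to 3.93). The same library also differed in the first principal component (13.74 against 41.99 to 52.86). Vehicle replicate 4 stood apart in Bid (38.6 against 27.6 to 30.8), Cd247 (4.67 against 1.72 to 2.46) and Erap1 (149 against 171 to 183). The same library also differed in Pydc3 (0.279 against 0 to 0.0328), Sdhb (58.8 against 72.8 to 79.6) and Xist (3 against 20.9 to 54.9). Further cases there were the list of cholesterol and fatty acid synthesis (5.81 against 5.54 to 5.64), the list of mitochondrial ribosomal proteins (4.96 against 5.08 to 5.15) and the list of ribosome biogenesis (6.86 against 6.92 to 6.96). To these it added the list TGF-beta receptors and SMADs (4.61 against 4.2 to 4.34). Vehicle replicate 1 stood apart in Ccnd2 (460 against 390 to 410), Gm15433 (0.16 against 0 to 0.0331) and Htra2 (83.1 against 96.5 to 100). The same library also differed in Ifngr1 (50.7 against 65.6 to 74.8). PegIFN replicate 1 stood apart in Xist (654 against 40.8 to 110) and the list of brakes on interferon and cytokine signalling (5.65 against 5.81 to 5.88). The same Xist values met the rule again as an unlogged library measure (653.9 against 40.8 to 110.1), and both entries are among the 40. PegIFN replicate 5 stood apart in Sesn2 (35.5 against 23.9 to 26.5). PegIFN replicate 6 stood apart in the list G2/M and mitosis (6.36 against 6.49 to 6.54). Vehicle replicate 2 stood apart in Ccl5 (0.0615 against 0.398 to 0.735). Vehicle replicate 3 stood apart in Tmem173 (24.5 against 29.8 to 33.2).

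In 32 genes named in the text the response differed between the genotypes with the mouse as a block (edgeR, adjusted p under 0.05). Each value is the log2 difference, Jak2V617F minus wild type, followed by the wild-type and the Jak2V617F log2 fold change. Differences above 0 were those of Plk2 (1.25, from -2.72 and -1.59), Cdkn1a (1.16, from 0.24 and 1.42), Csf3r (0.96, from -1.62 and -0.67) and Trp53inp1 (0.80, from -0.91 and -0.10). They were followed by Alcam (0.75, from -2.05 and -1.26), Socs3 (0.75, from -1.89 and -1.21), Gm16140 (0.71, from -0.38 and 0.31) and Gstm1 (0.66, from -1.32 and -0.70). Next came Sesn2 (0.60, from 0.22 and 0.82), Egln3 (0.55, from -1.45 and -0.92), Glipr1 (0.54, from -0.28 and 0.26) and Egr1 (0.54, from -2.49 and -1.94). After these stood Pdzk1ip1 (0.47, from -0.97 and -0.51), Ccng1 (0.44, from 0.10 and 0.55), Oas1g (0.43, from 3.62 and 4.04) and Meis1 (0.42, from -0.60 and -0.17). Smaller ones were Angpt1 (0.36, from -0.85 and -0.48), Lyl1 (0.32, from -0.72 and -0.40), Gabarapl1 (0.31, from -0.72 and -0.41) and Acvr1b (0.29, from -1.17 and -0.86). Last were Sesn1 (0.24, from -0.79 and -0.55) and Mcl1 (0.23, from -0.74 and -0.51). Differences below 0 were those of Trp53 (-0.23, from 0.55 and 0.32), Oas2 (-0.26, from 4.38 and 4.11), Tcf3 (-0.29, from 0.49 and 0.20) and Isg15 (-0.40, from 5.45 and 5.06). They were followed by Gata1 (-0.43, from 1.32 and 0.91), Mki67 (-0.44, from 0.27 and -0.16), Myb (-0.45, from 0.22 and -0.24) and Ifngr1 (-0.66, from 1.08 and 0.40). Next came Steap3 (-0.66, from 1.81 and 1.15) and Amigo2 (-0.86, from 0.48 and -0.38). Of these calls 13 were lost without the mouse of Jak2V617F pegIFN replicate 3 or without that of vehicle replicate 4: Acvr1b, Alcam, Egr1, Gstm1, Isg15, Lyl1, Mcl1, Oas1g, Oas2, Sesn1, Steap3, Tcf3 and Trp53. Without the 2 mice apart on Xist, 42 and 62 calls were left over all genes tested. Which of the genes and lists named here kept their calls in that setting is not given.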

How the results depend on the processing

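For pegIFN against vehicle in Jak2V617F cells, the counts of genes higher and lower stayed within 1.5 times of 3446 and 3545 with other size factors, other filters, DESeq2, limma-voom, the 12 Jak2V617F libraries alone, and each library left out in turn (3148 to 3722 higher, 3078 to 3781 lower). Upper-quartile scaling put 38.8% of calls on the higher side against 49.3%. Requiring 2-fold left 328 and 1091, and a test against a log2 change of 0.5 left 317 and 847. Replicate numbers do not pair pegIFN with vehicle mice (r from -0.11 to 0.06 over 6 pairs); with the replicate block 2859 genes were higher and 2834 lower. Of the calls over all libraries, 79.4% (replicate block) to 99.5% (DESeq2) were shared by an alternative. No called gene named here changed direction in these alternatives. List medians near 0 did, for example pro-survival genes (-0.14 to 0.17 with no filter), mast cell genes (0.18 to -0.28 without pegIFN replicate 2) and the heptad (-0.04 to 0.04 without vehicle replicate 5). Genes below the filter were not tested, and few CPM limit the precision of those just above it.

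The difference between genotypes depended on the model, and the cause was not tested. It had 0 genes with other size factors or no filter, 1 higher and 2 lower with a filter of 1 CPM, 10 and 28 with DESeq2, 84 and 197 with limma-voom, and 203 and 325 with the mouse as replicate block. With that block, 42 and 62 were left without the 2 mice apart on Xist, 94 and 197 without the mouse of Jak2V617F pegIFN replicate 3, and 104 and 148 without that of vehicle replicate 4. The first and the last of these settings share a mouse. Without the block, leaving out 1 Jak2V617F library gave 0 higher and 0 to 3 lower (3 without pegIFN replicate 1, 1 without vehicle replicate 4, 5 or 6). No wild-type library was left out on its own. Leaving out all 3 libraries that stood apart gave 1 lower. That 3-library setting and the settings without those mice were chosen after seeing the data.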

Other observations

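Chaperones and lipid synthesis genes were called higher more often than lower, while glycolysis and lysosome genes were near the shares over all genes (21.7% and 22.3%). Cytosolic and mitochondrial chaperones were higher in 24 and lower in 0 of 30 genes (median 0.38). Hspe1 and Hspd1, which together fold proteins inside mitochondria, changed by 0.83 ± 0.12 and 0.63 ± 0.094. Cholesterol and fatty acid synthesis was higher in 18 and lower in 1 of 34. Fdps, which makes the isoprenoid precursor farnesyl diphosphate, went from a median of 36.4 CPM (32.95 to 46.2) to 62.2 CPM (56.8 to 68.4) without overlap (0.73 ± 0.10, SE; adjusted p = 2.92e-06). Glycolysis genes were 5 higher and 8 lower of 29: the first enzyme Hk2 rose (0.54 ± 0.063) and the oxygen sensor Egln3 fell (-0.92 ± 0.15). Iron and haem genes were higher in 8 and lower in 4 of 24 (11 and 2 without vehicle replicate 4), with the endosomal iron reductase Steap3 up from a median of 41.4 CPM (36.8 to 54.5) to 104 CPM (64.3 to 109) without overlap (1.15 ± 0.14, SE; adjusted p = 1.21e-06). Lysosome and autophagy genes were 10 higher and 9 lower of 40. The protease Ctsz rose (0.41 ± 0.062) and the autophagosome proteins Map1lc3b and Gabarapl1 fell (-0.52 ± 0.066 and -0.41 ± 0.065).

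Silencing factors and chromatin genes moved in both directions. Of 34 genes of silencing and retroelement control 15 were higher and 5 lower (8 with upper-quartile scaling). Mov10, a helicase that restricts retroelements, was at 39.6 to 61.2 CPM in vehicle (median 47.7) and 138 to 176 CPM in pegIFN (median 154) (1.66 ± 0.093, SE; adjusted p = 2.42e-13), and the nuclear body protein Sp100 and the histone chaperone Daxx changed by 1.54 ± 0.067 and 1.56 ± 0.076. Atrx, the partner of Daxx, and the DNA demethylase Tet1 fell (-0.40 ± 0.063 and -0.72 ± 0.088). Imprinted growth-control genes fell in 7 and rose in 0 of 13. Meg3, an imprinted long RNA, was at 0.133 to 2.87 CPM in vehicle (median 1) and 0 to 0.289 CPM in pegIFN (median 0.0850), where the groups overlapped (-3.23 ± 0.67, SE; adjusted p = 4.85e-04). Replication-dependent histones, whose mRNA mostly lacks the poly(A) tail that oligo d(T) priming needs, were lower in 7 and higher in 0 of 35, with 4 lower without pegIFN replicate 3 and 3 without the 3 libraries that stood apart.

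The other lists are given as counts, beside 21.7% higher and 22.3% lower over all genes tested. Repair genes were higher in 7 and lower in 1 of 35. D cyclins, their kinases and inhibitors gave 4 and 4 of 14, death receptor genes 4 and 3 of 15, and necroptosis and pyroptosis genes 4 and 2 of 16. Multipotent progenitor genes were higher in 2 and lower in 7 of 18, cytokine and driver genes of myeloproliferative disease in 6 and 8 of 26, and the MYC network in 7 and 5 of 17. Among lists of other cell types, B cell genes were higher in 0 and lower in 4 of 14, T and NK genes in 3 and 3 of 11, mast cell genes in 2 and 2 of 13, and macrophage genes in 3 and 1 of 17. Endothelial and stromal genes fell in 8 of 14, and in 6 without vehicle replicate 4. Sparc, a matrix protein, was at 0.796 to 22.6 CPM in vehicle (median 2.06) and 0.366 to 0.682 CPM in pegIFN (median 0.499) (-3.58 ± 0.68, SE; adjusted p = 2.36e-04). Y-linked genes gave 0 and 0 of 4. Leaving out 1 library moved several of these counts by more than 1.5 times. Death receptor genes higher were 2 without vehicle replicate 1 or 4, repair genes lower 0 without pegIFN replicate 1, 2, 4 or 6 or vehicle replicate 3, 4 or 5, and cytokine and driver genes lower 5 without pegIFN replicate 6 or vehicle replicate 4. Necroptosis and pyroptosis genes lower were 4 without pegIFN replicate 3 and 1 without any other library except pegIFN replicate 4 and vehicle replicate 3. T and NK genes lower were 5 without pegIFN replicate 3, mast cell genes higher 1 without pegIFN replicate 4, and macrophage genes lower 3 without vehicle replicate 3 and 2 without pegIFN replicate 1 or vehicle replicate 1. Cholesterol and fatty acid genes lower were 2 without vehicle replicate 3.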
